A study of Mus musculus with 12 samples.

Results

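The region described here is the H3K4me3 domain at Olfm4, 1 of 24352 merged regions. Its rule takes every peak that overlaps a window of mouse chromosome 14, chr14:80395000-80412000 in build mm9. ChIP-seq of the histone mark H3K4me3, trimethylated lysine 4 of histone H3, was performed on mouse small-intestinal epithelium in 4 groups of 2 libraries (8 in all), given as biological duplicates. The region was chosen by its own peak calls, present in both stem-cell lists and missing from the other 6, so these calls are given as a description and no test was made on them. The name of the gene is that of the rule, since no gene annotation of build mm9 was used here.

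The ISC group is adult stem cells sorted for high EGFP from the Lgr5EGFP-Cre-ERT allele. Embryonic epithelium, taken at E12.5 or E14.5, was sorted as EpCAM-positive cells without the endothelial marker CD31 or the leukocyte marker CD45. Enterocytes were sorted by the same 3 markers from adults, and the labels name no Lgr5-EGFP gate for them. The adults were 2-month-old males carrying the Lgr5 allele, so adult stem cells and enterocytes share it, and all groups were of a mixed C57BL/6 CD1 strain. Depth was 13355462 and 25547814 tags in the ISC libraries. In the other 6 libraries it ranged from 12821255 in enterocyte replicate 1 to 43259380 in E14.5 replicate 1. The sorted cell types were not checked against their marker genes, since positions of those genes in mm9 were not used here.

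Olfm4 encodes olfactomedin 4, a secreted glycoprotein that is widely used as a marker of Lgr5-positive stem cells at the base of small-intestinal crypts. H3K4me3 sits around the transcription start of active or poised genes, usually as a short domain. In some cell types, long domains that run into the gene body mark genes with roles in cell identity.

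The promoter of Olfm4 is shown because the stem-cell mark is assigned to this gene. It is the RefSeq window from 250 bases before to 50 bases after the start, chr14:80000052-80000351 on the + strand of build GRCm38.p6. No position was carried between that build and the mm9 of the peaks, so where this window falls within the peaks was not measured. Capitals mark matches to the motifs described next.

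Olfm4 promoter: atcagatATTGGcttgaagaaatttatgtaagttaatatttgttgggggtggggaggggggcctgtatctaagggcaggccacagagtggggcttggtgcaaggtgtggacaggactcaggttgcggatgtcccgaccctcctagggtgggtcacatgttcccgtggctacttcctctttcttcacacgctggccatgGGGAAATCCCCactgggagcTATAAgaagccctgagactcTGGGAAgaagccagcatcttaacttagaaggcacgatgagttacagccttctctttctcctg

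Motifs were searched on both strands, with the sequence in view when they were listed. A TATA-like TATAA match lay 32 bases before the start, and 24.9% of 32817 RefSeq promoter windows of the same length held that motif. A match to the kappaB consensus, bound by NF-kappaB factors, began 52 bases before the start. It read on both strands as overlapping matches at 1 place, and 4.50% of the windows held such a match. The core letters of RBPJ, the DNA-binding factor of the Notch pathway, TGGGAA, matched 12 bases before the start (25.6% of windows). A CCAAT match lay on the opposite strand 243 bases before it (37.4% of windows). None of the TCF letters CTTTGAT or CTTTGAA, the CDX letters TTTATNG or the GATA letters TGATAA were in this window. They were in 3.73%, 5.14%, 10.9% and 9.06% of the windows, in that order. The window held 5 CpG pairs against a median of 7 over all windows, and 38.1% of windows had fewer. Its GC content was 52.3%, against a median of 52.7%. The Olfm4 promoter thus lay near the middle of these windows in GC content and somewhat below it in CpG pairs.

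In the ISC libraries, the mark formed 1 long unbroken peak in each replicate. The peak of ISC replicate 1 ran from 80399972 to 80406046 in mm9 and was 6075 bp wide. The peak of ISC replicate 2 ran from 80399966 to 80407772 and was 7807 bp wide. The mean was 6941 bp ± 1225 (SD, n = 2). Each of the 2 E12.5, 2 E14.5 and 2 enterocyte libraries had 0 bp under peaks in the window. This split was fixed by the choice of the region, and 115 of 24352 merged regions (0.472%) had it. A list without a peak shows that the authors' caller reported none at that depth, not that the mark was absent. The libraries with no peak ranged from 12821255 tags in enterocyte replicate 1 to 43259380 in E14.5 replicate 1. The part of depth in the missing calls was not tested.

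**Figure D1:**
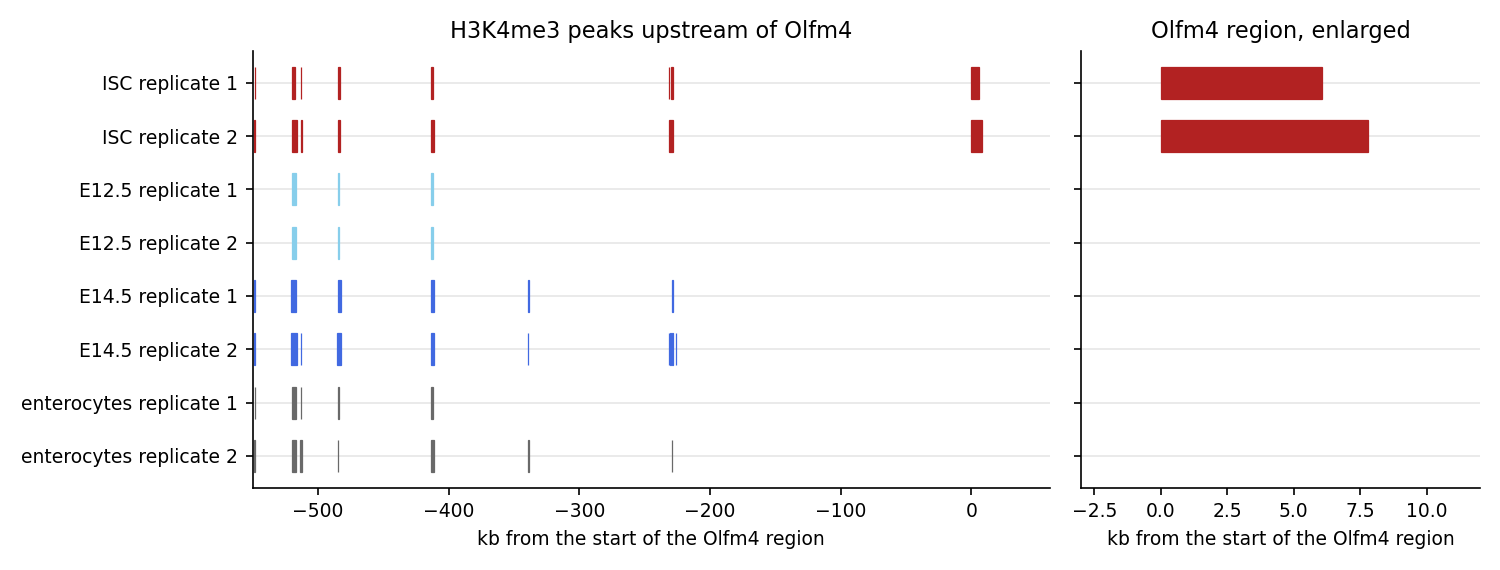
Peaks of each library (rows) along the chromosome, in kb from the start of the Olfm4 region, with the region itself enlarged on the right. Both ISC rows carry a bar at 0 kb, 6075 and 7807 bp long, where the E12.5, E14.5 and enterocyte rows are empty, while the peaks about 411 kb upstream appear in all 8 rows.

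The lists that lacked the region did hold peaks of its size. Peaks at least as wide as the 6075 bp of ISC replicate 1 numbered 17 and 33 in the ISC lists, replicates 1 and 2. They numbered 6 and 11 at E12.5, 48 and 46 in the E14.5 libraries, and 25 and 50 in enterocytes. Whether a domain as shallow as that of ISC would have been detected in these libraries was not tested.

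By width, Olfm4 stood near the top of the stem-cell lists. Its peak was the 17th widest of 13213 in ISC replicate 1, where 0.121% of peaks were wider, and the 14th widest of 15617 in ISC replicate 2, where 0.0832% were. It was 5.76 times the median width of 1054 bp in ISC replicate 1 and 6.81 times the median of 1147 bp in ISC replicate 2. In replicate 1 the next wider peak had 6147 bp and the next narrower 5868 bp. In replicate 2 these were 7880 bp and 7378 bp. The 16 and 13 peaks that were wider all belonged to regions called in all 8 libraries. Olfm4 was thus the widest peak in each ISC list that was not part of such a constant region. The share of all merged regions called in all 8 libraries is not given here, so nothing is read from these counts about wide peaks.

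By strength, given by the authors' values for each peak, the same peak stood in the lower part of both lists. Its −log10 q was 5.74 in ISC replicate 1, rank 9229 of 13213, with 69.8% of peaks higher. In ISC replicate 2 it was 8.95, rank 10462 of 15617, with 67.0% higher. The medians of the lists were 9.46 and 21.4. Fold enrichment was 5.13 in replicate 1 and 5.14 in replicate 2, against list medians of 5.63 and 6.59. Mean pileup, the fragment coverage averaged over the peak, was 12.3 in replicate 1 and 20.0 in replicate 2, and 81.2% and 75.6% of peaks had more. In these bulk libraries, fewer cells with the mark and less mark per cell cannot be told apart.

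Peaks of like width were nearly all stronger. In ISC replicate 1, 59 other peaks were within 25% of the Olfm4 width, and 4 of them had a lower −log10 q, 7 a lower fold enrichment and 1 a lower pileup. Their median −log10 q was 11.1 and their median pileup 21.4, or 1.74 times that of Olfm4. In ISC replicate 2, 38 other peaks were of like width, and 0 had a lower −log10 q, 1 a lower fold enrichment and 0 a lower pileup. Their median −log10 q was 31.7 and their median pileup 47.0, or 2.35 times that of Olfm4. The domain was thus long and shallow in both replicates. Among the widest 1% of peaks, 10 of 133 in replicate 1 and 1 of 157 in replicate 2 had a lower −log10 q.

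**Figure D2:**
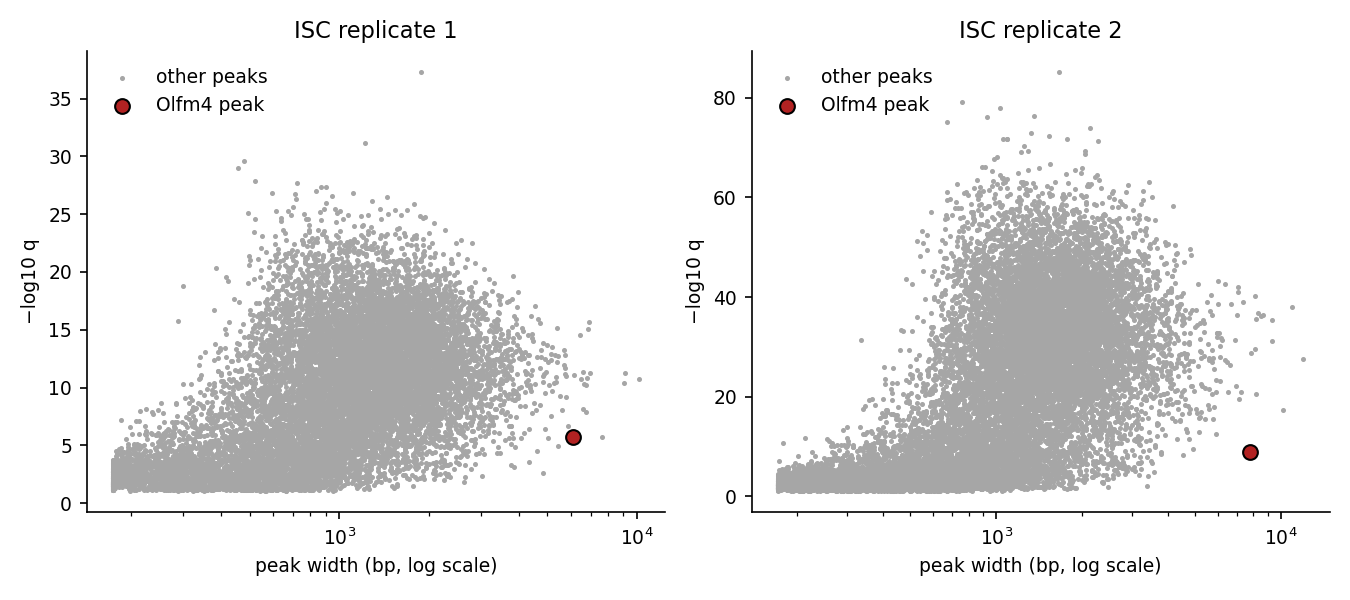
Width of every peak (bp, log scale) against its −log10 q in the lists of ISC replicates 1 and 2, with the Olfm4 peak in red. The Olfm4 peak lies at the far right of both clouds and, for its width, near the bottom. It is at 6075 bp and 5.74 in replicate 1 and at 7807 bp and 8.95 in replicate 2.

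The 2 replicates placed the left edge of the domain at nearly the same base and the right edge far apart. The starts differed by 6 bp and the ends by 1726 bp, and the shorter peak lay wholly within the longer one. Olfm4 is on the + strand in GRCm38.p6. If that holds in mm9, the end that differed more lies in the direction of transcription, but its place relative to the gene was not measured. For comparison, 34 other regions of similar width had 1 peak in each ISC list. Their nearer pair of ends differed by a median of 98.0 bp, and in 0 of the 34 by 6 bp or less. Their farther pair differed by a median of 417.5 bp, and in 2 of the 34 by at least 1726 bp. The Olfm4 peak was 1.29 times as wide in replicate 2 as in replicate 1, against a median of 1.08 for those regions, of which 3 had a larger ratio and 29 were wider in replicate 2. Replicate 2 also had 1.91 times the tags of replicate 1. The part of depth in the longer peak was not tested.

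**Figure D3:**
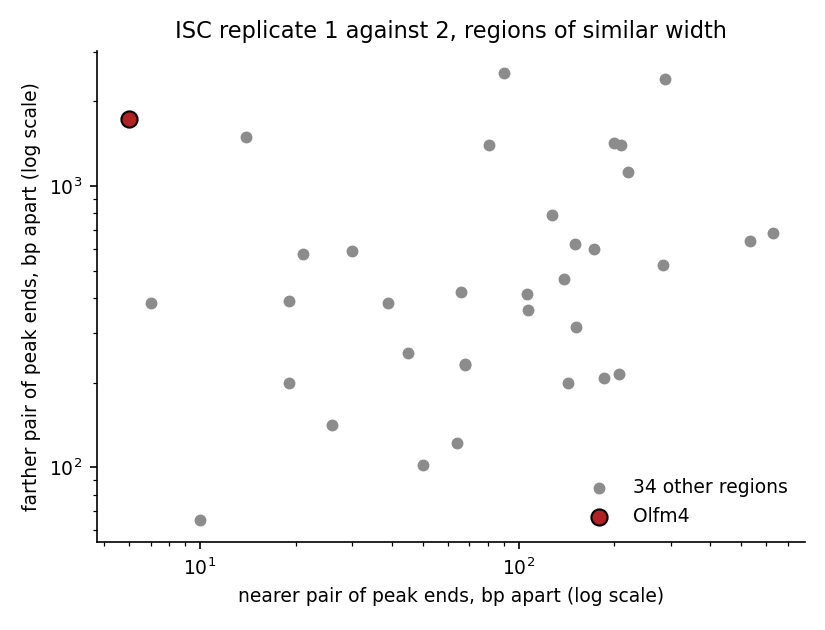
Distance between the peak ends of ISC replicates 1 and 2, for the nearer pair of ends (horizontal) and the farther pair (vertical), both in bp on log scales, in Olfm4 and 34 other regions of similar width. Olfm4 has the smallest nearer distance, 6 bp, with a farther distance of 1726 bp.

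The region lay before a long stretch with no peaks in ISC, with distances here taken from the ends of the merged region. The nearest peak upstream ended 228.4 kb away in ISC replicate 1 and 228.3 kb away in ISC replicate 2. The nearest peak downstream began 4.44 Mb and 4.43 Mb away, in the same order. Among gaps between neighbouring peaks, 36 of 13192 in replicate 1 and 29 of 15596 in replicate 2 were longer than the one downstream of the Olfm4 peak of that list, while the median gap was 57.4 and 47.4 kb. The upstream gap was less unusual, with 17.6% and 14.3% of gaps longer. In the other groups the first downstream peak was farther, at the same place or nearer. The next peak lay 5.94 and 2.73 Mb away at E12.5, 4.43 Mb in both E14.5 libraries, and 7.13 and 2.15 Mb in enterocytes. In the RefSeq gene order of GRCm38.p6, the next protein-coding genes are Pcdh8 before Olfm4 and Pcdh17 after it, both protocadherins. Between Olfm4 and Pcdh17 that table lists 15 entries, all long noncoding RNAs, pseudogenes or small nucleolar RNAs.

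The closest marked stretch on the upstream side varied between groups as well. Within 250 kb of Olfm4, peaks lay between 80168272 and 80174040 and covered 1541 and 3162 bp in ISC. They covered 0 bp in both E12.5 libraries, 326 and 1388 bp at E14.5, and 0 and 396 bp in enterocytes. In covered bp the stem-cell libraries were the highest, with little distance between ISC replicate 1 and E14.5 replicate 2. The −log10 q values of these peaks were not compared between lists, since the libraries differ in depth. In the ISC lists, the highest −log10 q of these peaks was 2.50 and 4.24, below the median of each list. It was 5.69 and 3.16 at E14.5, and 2.87 in enterocyte replicate 2. The next region outward, from 80060843 to 80061259, had 0 bp in both ISC and both E12.5 libraries, 368 and 132 bp at E14.5, and 0 and 375 bp in enterocytes. Beyond it, the region from 79986570 to 79988790 was called in all 8 libraries, over 1318 and 1891 bp in ISC. Its E12.5 peaks spanned 1366 and 1418 bp, those of E14.5 spanned 2202 and 2182 bp, and those of enterocytes 1699 and 1795 bp. This neighbour was thus marked in every group.

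Regions called in both ISC lists and in no other list numbered 115 of 24352, or 0.472%, with Olfm4 among them. Since the region was chosen for this pattern, nothing is read from its place in that count. The count depended on single libraries, though leaving 1 out loosens the rule, so it could only stay or rise. Leaving out ISC replicate 1 gave 913, leaving out ISC replicate 2 gave 488, and leaving out enterocyte replicate 2 gave 185. Most of the 115 were short, with a median of 404 bp (mean of the 2 ISC libraries), and Olfm4 was the longest. The second was on chromosome 18, covered over 2195 and 3511 bp in ISC, so that the mean of Olfm4 was 2.43 times as long. The third, on chromosome 11 from 100016976 to 100019668, had 1687 and 2693 bp under its ISC peaks. The fourth, on chromosome 5 from 64782814 to 64785062, had 1558 and 2249 bp. The fifth, on chromosome 6 from 31096931 to 31099476, had 1472 and 2275 bp. Among the 115, Olfm4 was 4th by −log10 q in replicate 1 and 3rd in replicate 2, and 2nd and 3rd by fold enrichment. By pileup it was 12th and 13th.

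No other region of similar width had the pattern. The 50 regions called in both ISC lists with a mean of 5206 to 8676 bp, within 25% of Olfm4, comprised Olfm4 and 49 others. Of the 50, 1 was called in no other list (2.00%), and it was Olfm4 itself. For scale, 12549 merged regions were called in both ISC lists, and 10632 in both E12.5 lists. At most 10632 were thus called in all 8 lists, and the exact share is not given here. Of the 49 others, 47 were called in all 8 libraries. Of the remaining 2, one lay on chromosome 1 from 132722753 to 132728336. Its peaks spanned 5064 and 5584 bp in ISC, against 0 bp in all 4 embryonic libraries and 4609 and 3906 bp in enterocytes. The other lay on chromosome 15 from 97733845 to 97740047, with 5404 and 5239 bp in ISC. It had 0 and 865 bp at E12.5, 1107 and 1040 bp in the E14.5 libraries, and 5680 and 5978 bp in enterocytes. Each of these 49 was thus called in both enterocyte libraries as well. Olfm4 was not, which was fixed by the choice of the region.

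Olfm4 was also longer than any region called in both libraries of another single group and nowhere else. At E12.5 there were 6 such regions, the longest of 509.5 bp ± 166 (SD, n = 2). At E14.5 there were 1289, the longest of 2003.5 bp ± 34.6. In enterocytes there were 369, the longest of 4909.5 bp ± 893, on chromosome 17 from 34680713 to 34686329. A mean of at least 50% of that of Olfm4 was reached by 12 enterocyte regions and by 0 at either embryonic stage. The lists held 13213 and 15617 peaks in ISC, with 11111 and 13693 at E12.5. They held 16225 and 17658 peaks in the E14.5 libraries, with 11650 and 17007 in enterocytes. Whether list length had a part in how the numbers of such regions differed between groups was not tested.

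**Figure D4:**
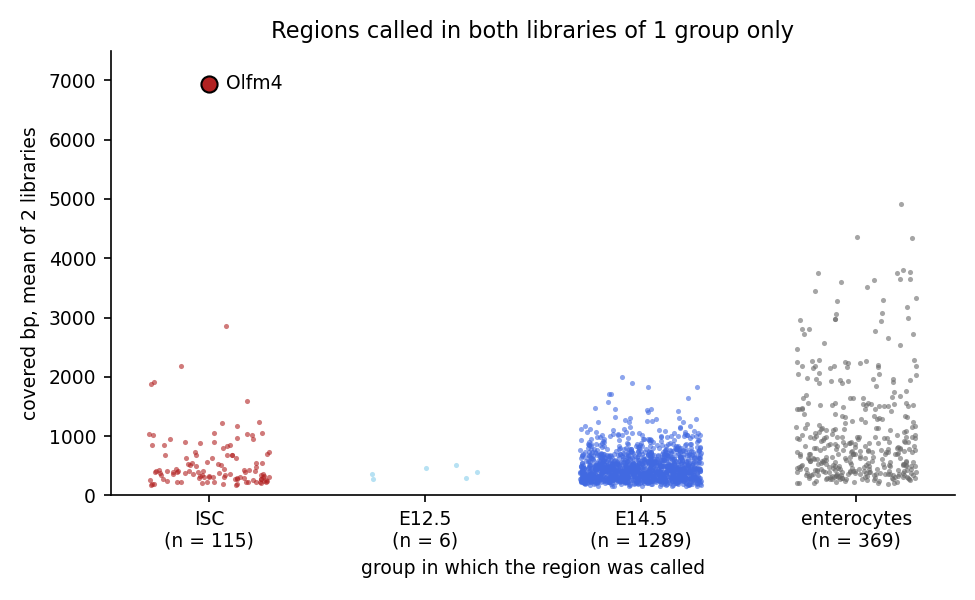
Covered bp (mean of 2 libraries) of every region called in both libraries of 1 group and in no other library, for ISC, E12.5, E14.5 and enterocytes. Olfm4, at 6941 bp, lies above all other points, of which the highest reach 2853 bp (ISC) and 4909.5 bp (enterocytes).

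The regions most like Olfm4 were ranked by the mean absolute difference in covered bp over the 8 libraries. The nearest, on chromosome 2 from 103138900 to 103144514, differed by 694 bp and was covered over 5412 and 4401 bp in ISC. It had 0 bp at E12.5 and in enterocytes, but 670 and 814 bp at E14.5. The second was the chromosome 18 region named above, with a difference of 1022 bp. The third, on chromosome 10 from 12264503 to 12268926, differed by 1030.5 bp. It was covered over 3878 and 4424 bp in ISC, 0 bp in both E12.5 libraries, 1053 and 1032 bp at E14.5, and 0 and 579 bp in enterocytes. The fourth, on chromosome 3 from 144508931 to 144512608, differed by 1106 bp, with 2890 and 3678 bp in ISC. It had 0 bp in both E12.5 libraries, 488 and 538 bp at E14.5, and 0 and 511 bp in enterocytes. The fifth was the chromosome 11 region named above, at 1188 bp. None of the 5 had a peak at E12.5, and 3 of them had short peaks in both E14.5 libraries. Olfm4 had none there, by the choice of the region.

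**Figure D5:**
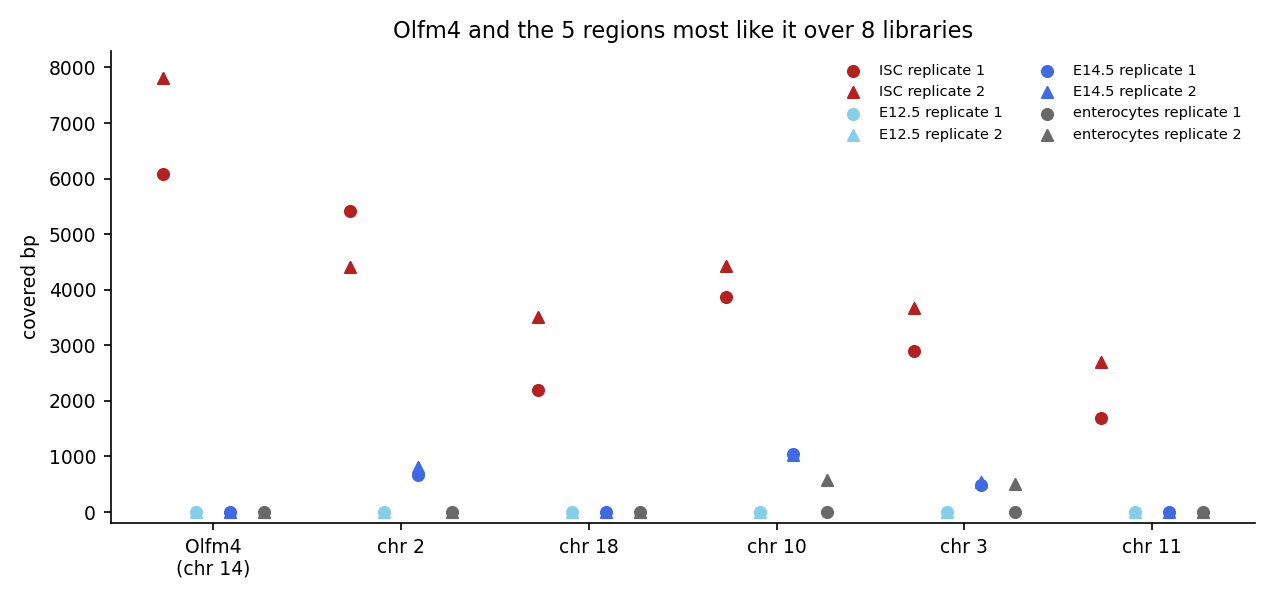
Covered bp in each library for Olfm4 and the 5 regions with the smallest mean absolute difference from it, with circles for replicate 1 and triangles for replicate 2. ISC points are highest in every region, and the regions of chromosomes 2, 10 and 3 also have E14.5 points between 488 and 1053 bp.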

How the data were processed

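Per the labels' protocols, chromatin of fixed, sorted cells was sonicated to 350 to 700 bp. The authors deposited 1 peak list per library. MACS 2.0.10.20130712 made them with broad calling on and a q-value limit of 0.01, 1 input serving both replicates, per the file headers. Bowtie 1.1.2 and build mm9 are named in the submitters' processing notes. The deposited columns are a pileup signal, the p-value and q-value as −log10, and fold enrichment as a ratio. The weakest peak of a list had a −log10 q of 1.01 to 1.09, weaker than that limit, and the limit for broad peaks is not given in the sources used here. The columns served to describe, rank or filter peaks inside a list. The 4 input samples enter only as controls of these calls.

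Peaks of the 8 lists were merged into regions where they overlapped by at least 1 bp or touched. A region is called in a library with any peak there, and its covered bp is the sum of those peaks. Groups came from the sample titles. The merging was tested on simulated peaks. Python 3.11.15 with pandas 2.3.3 was used. Named regions are Olfm4, all of similar width or the 5 longest called in both ISC lists alone, the 5 most alike, and the nearest neighbours. Regions are named by position. Members, lists and alternatives were chosen with earlier results of these data known. Peak lists hold no read counts, so no interval is given, and the spread is that of 2 libraries.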

Additional observations from a re-analysis of the deposited data

How the results depend on the processing

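No test was made, so these are values alone. The count of 0 other regions of similar width called in both ISC lists and no other was 0 under all 16 alternatives: width limits of 10% or 50%, no upper limit, merged length, peaks merged up to 1000 bp apart, at least 500 covered bp, a −log10 q of at least 10, lists of equal number, and each of the 8 libraries left out. The alternatives of width limit, upper limit and merged length could only give 0. The next longest region called in both ISC lists alone had a mean of 2853 bp, too short for any of them. Requiring a −log10 q of at least 10 removed both Olfm4 peaks, which are below it, so its mean covered bp was 0. The count of regions called in both ISC lists alone was then 1, on chromosome 12 from 77894404 to 77896558, which 6 libraries called with all peaks kept. That count was 57 with at least 500 covered bp and 117 to 913 with 1 library left out, which loosens the rule. In lists of equal number (11111 peaks) it was 87, and Olfm4 was kept. Leaving out 1 ISC library gave a covered length of 6075 to 7807 bp, 0.0832% to 0.121% of peaks wider than Olfm4, and 67.0% to 69.8% with a higher −log10 q. The means of these shares were 0.102% and 68.4%. Against only peaks of −log10 q 10 or more they became 0.168% and 100%. That 100% was fixed in advance, since both Olfm4 peaks are below 10. In lists of equal number the means became 0.131% and 88.6%. Both settings drop weak peaks. Ranked by fold enrichment 61.0% were higher, and by pileup 78.4%. No paired analysis was possible because the results come from no test. The lists give no reads where no peak was reported, and the part of depth in the missing calls was not tested.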
